A study of Mus musculus with 12 samples.

Results

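The alpha-1 antitrypsin gene cluster was described in mouse liver as 6 genes, Serpina1a to Serpina1f, of 25947 entries in the deposited expression table. The members were chosen by symbol and chosen on measured values, the TPM (transcript abundance corrected for gene length) of these same 12 libraries. Their levels, fold changes and sums are therefore given as a description with no test, and p-values are printed only for genes outside the cluster. Liver RNA came from 12 samples of wild-type mice in 4 groups of 3. HFD-IRI livers came from mice on a high-fat diet (HFD) for 4 months, a model of steatosis, whose left and middle hepatic inflow was then closed for 1 h and reopened for 6 h (ischemia-reperfusion injury, IRI). HFD-Sham livers shared the diet and had the operation without the closure. ND-IRI and ND-Sham livers came from mice on a normal diet (ND) with the same 2 procedures. The labels give neither the strain, age and sex of the mice nor whether injured or spared lobes were sampled.

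Alpha-1 antitrypsin is a serpin, a protease inhibitor whose exposed reactive loop is cut by the target enzyme and then traps it. Hepatocytes secrete it into plasma in large amounts, and it is best known for protecting tissue from the elastase of neutrophils. Humans carry a lone functional gene, SERPINA1, whereas mice carry a cluster of near-identical copies that differ most in the reactive loop, so the copies need not inhibit the same enzymes.

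TPM have the same total in each library, and levels could be compared between members because they are per length. The read depth behind the values was not known, which leaves them without an interval for counting error. Each library had 18935 to 20425 genes above 0, and mitochondrially encoded genes took 9.43% to 15.2% of the total. The 10 hepatocyte markers summed to 93107 to 133158 TPM over the 12 libraries, and the 5 of 8 listed markers of epididymis and testis that are in the table, where Serpina1f is known to be active in mice, summed to at most 1.42 TPM. The library ND-Sham 1 stood apart in some adipocyte transcripts. Adipoq was at 11.6 TPM, Plin1 at 2.31 TPM and Retn at 2.53 TPM, against at most 0.23, 0.25 and 0.07 TPM in the other 11 libraries. Lep was at 0.2 TPM there and at most 0.05 TPM elsewhere. Other listed adipocyte markers did not go that way. Car3 was at 679 TPM in ND-Sham 1, against 569 to 4015 TPM in the other libraries. Cfd was at 67.5 TPM, below the 79.3 TPM of HFD-Sham 1. ND-Sham 1 enters the diet comparison in sham livers and the IRI comparison on the normal diet, and the members' values without it stand with those results. Fold changes are differences of log2(TPM + 1) from 1 linear model over 13364 genes that reached 1 TPM in at least 3 libraries, with the standard error (SE) of that model. In bulk tissue, fewer cells of a type and less RNA per cell cannot be told apart.

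In the RefSeq gene order of chromosome 12 the cluster reads Serpina1f, Serpina1b, Serpina1d, Serpina1a, Serpina1c and Serpina1e, with pseudogenes between the members, Serpina6 and Serpina16 beyond Serpina1f, and Serpina11, Serpina9 and Serpina12 beyond Serpina1e. The stretches upstream of the annotated starts are shown as a description, and their part in the members' levels was not tested. All 6 members matched a RefSeq promoter window (250 bases before to 50 after the start, GRCm38.p6, whereas the expression values were made on GRCm39). The stretches of the 5 transcribed members are 116 bases long and end before the start, 5′ to 3′, and the capitals mark a 12-base site found in each:
Serpina1e, chr12:103956960-103957075, minus strand: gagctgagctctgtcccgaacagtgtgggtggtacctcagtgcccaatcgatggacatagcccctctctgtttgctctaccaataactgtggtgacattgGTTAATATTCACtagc
Serpina1a, chr12:103863625-103863740, minus strand: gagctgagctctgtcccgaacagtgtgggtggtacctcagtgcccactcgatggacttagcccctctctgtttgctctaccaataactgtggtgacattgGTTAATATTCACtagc
Serpina1b, chr12:103738200-103738315, minus strand: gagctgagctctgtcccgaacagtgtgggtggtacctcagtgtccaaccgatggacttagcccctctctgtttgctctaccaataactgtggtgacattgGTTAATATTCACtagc
Serpina1c, chr12:103904962-103905077, minus strand: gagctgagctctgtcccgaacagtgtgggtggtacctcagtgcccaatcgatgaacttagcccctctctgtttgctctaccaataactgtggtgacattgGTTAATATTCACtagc
Serpina1d, chr12:103773634-103773749, minus strand: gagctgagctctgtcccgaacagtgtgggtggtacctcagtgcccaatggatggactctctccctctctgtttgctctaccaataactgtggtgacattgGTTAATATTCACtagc
The site GTTAATATTCAC was picked after the sequences had been read. The stretches were cut around it, from 100 bases before it to 4 bases after it, and the rest of each window was not compared. It was present, on either strand, in 5 of 32851 windows of the promoter table (0.0152%), and those were the windows of Serpina1a to Serpina1e. The Serpina1f window did not hold these letters.

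Without gaps, 106 of 116 positions were identical in the 5 stretches. Counted from 1 at the 5′ end, the Serpina1e stretch differed from Serpina1a by A47C and A57T, from Serpina1c by G54A and A57T, and from Serpina1b by C43T, T48C and A57T (the Serpina1e base stands first). Serpina1d differed from it at 6 positions, 5 of them in the run from A57T to C61T. A57T was the only position where Serpina1e differed from all of the other 4. The site ended 66 bases before the annotated start in Serpina1e, the longest distance, and 4 bases before it in Serpina1d, the shortest. It began at base 173 of the window in Serpina1e, 230 in Serpina1a, 225 in Serpina1b, 224 in Serpina1c and 235 in Serpina1d. These spacings rest on where RefSeq places each start. These letters are a description, and no binding was measured.

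The coding sequences of Serpina1a to Serpina1e were close as well. In the GENCODE M21 transcripts (GRCm38) the longest open reading frame was 1242 bases in Serpina1b to Serpina1e, 1311 in Serpina1a and 1236 in Serpina1f. Over aligned bases Serpina1e was 96.3% identical to Serpina1b, 96.5% to Serpina1c and to Serpina1d and 96.8% to Serpina1a, while Serpina1a and Serpina1c were 98.7% identical. Of all 100-base windows of a member's reading frame, 80.9% in Serpina1e occurred in no other member, against 72.1% in Serpina1b, 70.2% in Serpina1d, 42.0% in Serpina1a and 38.3% in Serpina1c. The pseudogenes between the members were not compared. How the authors assigned reads that match several members is not given in the sources used here. A value of a single member is therefore uncertain, most of all the split between Serpina1a and Serpina1c. The sum over the members depends less on how shared reads were split among them. If such reads were left out, the sum and the members' shares of it would be affected too.

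Serpina1e was the most abundant member on the normal diet and the least abundant of the 5 transcribed members on the high-fat diet. It was at 153, 124 and 229.6 TPM in HFD-IRI livers, against 9338, 10249 and 11873 TPM in ND-IRI livers. Every HFD-IRI library lay far below every ND-IRI library. In sham livers it was at 204, 92.9 and 164 TPM on the high-fat diet, against 8394, 11222 and 7654 TPM on the normal diet, again with no overlap. The log2 fold change between diets was -5.99 in IRI livers (SE 0.28, 63.6-fold lower on the high-fat diet) and -5.93 in sham livers (SE 0.28, 61.0-fold lower). Among 13364 genes it had the lowest value of all in both diet comparisons, which is what the choice of the cluster already used.

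Serpina1c, next to Serpina1e in the gene order, was also lower on the high-fat diet, by far less. It was at 876, 891 and 1389 TPM in HFD-IRI livers, against 1533, 1521 and 1818 TPM in ND-IRI livers. In the sham livers it was at 982, 652 and 1067 TPM on the high-fat diet, against 1792, 1860.4 and 1458 TPM on the normal diet. The groups did not overlap in either comparison, and the log2 fold changes were -0.65 and -0.94 (SE 0.21 each). Serpina1d was at 2244, 2166 and 2598 TPM in HFD-IRI livers, against 3068, 2978 and 2945 TPM in ND-IRI livers. In sham livers Serpina1d was at 2482, 1513 and 2814 TPM on the high-fat diet, against 3847, 3897 and 3493 TPM on the normal diet. Its diet groups did not overlap either (log2 fold change -0.36 in IRI and -0.77 in sham livers, SE 0.19 each). HFD-Sham 2 was the lowest HFD-Sham library for each of the 5 members, and without it the sham difference of Serpina1d was -0.50.

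Serpina1a, the copy most like Serpina1c in sequence, was at 1184, 1265 and 1286 TPM in HFD-IRI livers, against 1495, 1395 and 1455 TPM in ND-IRI livers. It was at 1499, 1206 and 1388 TPM in HFD-Sham livers, against 1869.6, 2177 and 1964 TPM in ND-Sham livers. The ND-Sham livers stood above all other groups, and the 9 remaining libraries lay between 1184 and 1499 TPM. The diet difference was -0.22 in IRI livers and -0.56 in sham livers (SE 0.11 each), with no overlap in either. Under a scaling of each library to the abundant secreted hepatocyte proteins the IRI value was -0.09.

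Serpina1b kept about the same level on both diets, so that it was the leading member on the high-fat diet. It was at 4003, 2966 and 4419 TPM in HFD-IRI livers, against 3395, 3882 and 3852 TPM in ND-IRI livers. In sham livers it was at 4449, 3931 and 4530.35 TPM on the high-fat diet, against 4258, 4029 and 4701 TPM on the normal diet. The diet groups overlapped in both comparisons, and the log2 fold changes were 0.02 and -0.01 (SE 0.15 each). In sham livers the sign depended on the scaling: median-ratio scaling gave -0.21 and quantile normalization 0.28. Serpina1f, known from the male reproductive tract of mice, was listed at 0 TPM in 9 libraries and at 0.03 TPM in HFD-Sham 2, ND-Sham 2 and ND-Sham 3, so it did not pass the filter.

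Of the 5 members that passed the filter, 4 were lower without overlap on the high-fat diet in IRI livers, where 7% of all tested genes were, and the same 4 in sham livers, where 4.74% were. Nothing is read from these counts, since the members were chosen on this contrast. The 2 diet comparisons use different livers, but each shares a group with an IRI comparison, so that ND-Sham libraries enter both the diet difference in sham livers and the IRI difference on the normal diet. Without ND-Sham 1 the diet differences in sham livers were -5.98 for Serpina1e, -0.90 for Serpina1c, -0.75 for Serpina1d, -0.61 for Serpina1a and -0.02 for Serpina1b, and the summed level was at -1.24.

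**Figure D1:**
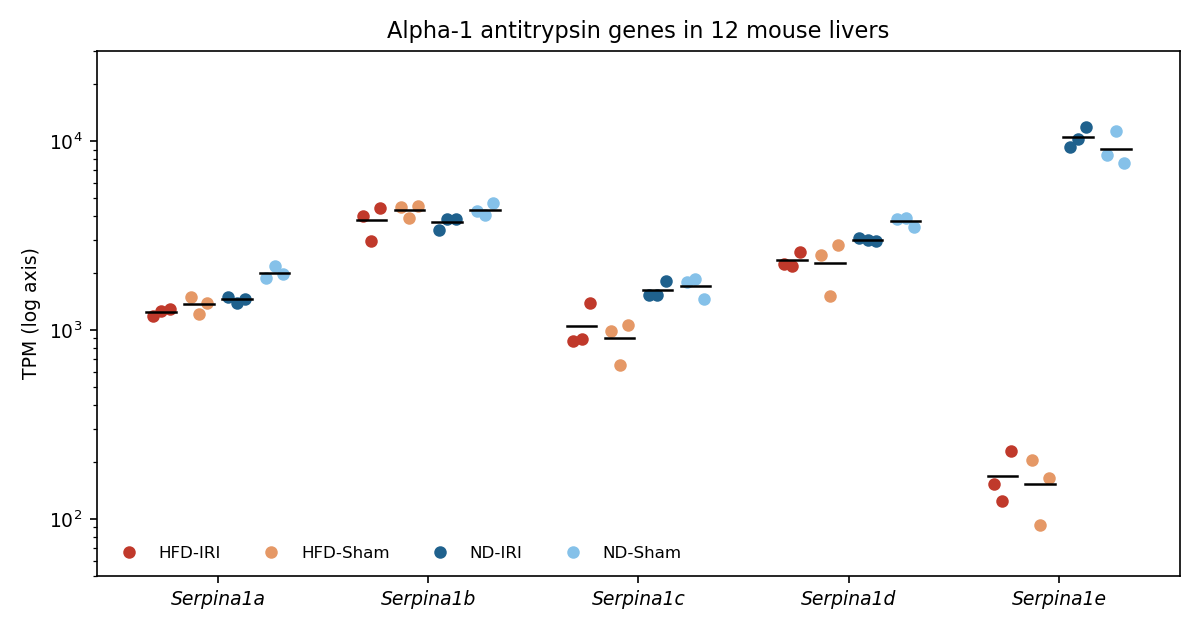
TPM of 5 Serpina1 genes on a log axis, 1 point per library, with a bar at the mean of the 3 libraries of each group. Serpina1e lies between 92.9 and 229.6 TPM in the 6 HFD libraries and between 7654 and 11873 TPM in the 6 ND libraries, while Serpina1b overlaps between diets.

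The order of the members' levels differed between diets. In HFD-IRI livers Serpina1b averaged 3796 ± 748 TPM (SD, n = 3, as for all means here), Serpina1d 2336 ± 229.9, Serpina1a 1245 ± 54.1, Serpina1c 1052 ± 292 and Serpina1e 169 ± 54.7, and the libraries of Serpina1a and Serpina1c overlapped. In HFD-Sham livers the same order held, with 4304 ± 325, 2269.8 ± 676, 1364 ± 148, 901 ± 219 and 154 ± 56.2 TPM, and no neighbours overlapped, although the lowest Serpina1d library (1513 TPM) was close to the highest Serpina1a library (1499 TPM). In ND-IRI livers Serpina1e led with 10487 ± 1284 TPM, followed by Serpina1b at 3709.5 ± 273, Serpina1d at 2997 ± 63.9, Serpina1c at 1624 ± 168 and Serpina1a at 1448 ± 50.3. In ND-Sham livers Serpina1e averaged 9090.3 ± 1883 TPM, Serpina1b 4329.6 ± 342, Serpina1d 3745 ± 220.2, Serpina1a 2003 ± 157 and Serpina1c 1704 ± 215. No neighbours in the order overlapped on the normal diet. Serpina1a and Serpina1c, the pair whose reads are hardest to tell apart, changed places between ND-IRI and ND-Sham livers.

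Summed over the 6 members, the cluster was at 8459, 7414 and 9922 TPM in HFD-IRI livers, against 18829, 20025 and 21942 TPM in ND-IRI livers. In sham livers the sum was 9616, 7395 and 9964 TPM on the high-fat diet, against 20161, 23185 and 19270.3 TPM on the normal diet. Every HFD library was below every ND library, and the log2 ratio of the group means was -1.24 in IRI livers and -1.21 in sham livers (2.36-fold and 2.32-fold lower). The cluster took 0.860% ± 0.126 of all TPM in HFD-IRI livers and 2.03% ± 0.157 in ND-IRI livers. Among sham livers it took 0.899% ± 0.139 on the high-fat diet and 2.09% ± 0.205 on the normal diet.

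Serpina1e made up most of that difference. It accounted for 88.4% of the gap in summed TPM between the diets in IRI livers and for 75.2% in sham livers. Its share of the sum was 1.93% ± 0.340 in HFD-IRI livers and 51.6% ± 2.29 in ND-IRI livers, and in sham livers 1.67% ± 0.432 on the high-fat diet and 43.3% ± 4.56 on the normal diet. Serpina1b held 44.0% ± 3.69 of the sum in HFD-IRI livers and 18.3% ± 0.948 in ND-IRI livers. In sham livers it held 48.3% ± 4.23 on the high-fat diet and 21.0% ± 3.51 on the normal diet. Without Serpina1e the sum was 8429 ± 1206 TPM in HFD-IRI livers and 9779 ± 289 TPM in ND-IRI livers, which overlapped (log2 ratio -0.21). In sham livers it was 8838 ± 1344 TPM on the high-fat diet and 11782 ± 174 TPM on the normal diet, with no overlap (-0.41). Set against albumin, the sum was 0.114 to 0.135 of the Alb level in the 6 HFD libraries and 0.216 to 0.343 in the 6 ND libraries.

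**Figure D2:**
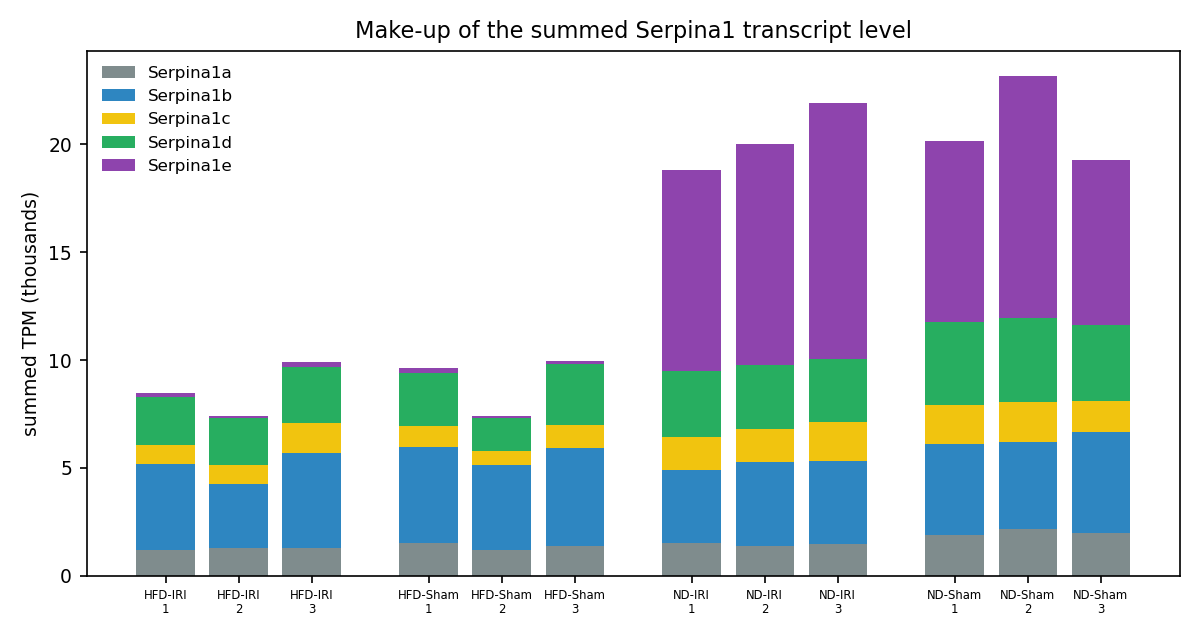
Summed level of the Serpina1 genes on a linear axis in kilo-TPM, 1 bar per library, divided into 5 members (Serpina1f is at or near 0). The Serpina1e segment takes 39.7% to 54.1% of each ND bar and 1.26% to 2.31% of each HFD bar.

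The cluster's level was also compared between IRI and sham livers. The size of these differences is not ranked against the diet differences, since the members were chosen on the diet contrast. The summed level was 8598 ± 1259.8 TPM in HFD-IRI livers and 8992 ± 1393 TPM in HFD-Sham livers, and 20265 ± 1570.4 TPM in ND-IRI livers and 20872 ± 2052 TPM in ND-Sham livers. The log2 ratios were -0.06 on the high-fat diet and -0.04 on the normal diet, below the SD of 0.181 of the log2 sum within groups, and the groups overlapped. On the high-fat diet 0 of 5 members had IRI and sham libraries that did not overlap, where 59.4% of all tested genes did. Nothing is read from this count, since the members were chosen on measured values. Their log2 fold changes were -0.13 for Serpina1a, -0.20 for Serpina1b, 0.22 for Serpina1c, 0.09 for Serpina1d and 0.16 for Serpina1e, with SEs of 0.11 to 0.28. The Serpina1d value was -0.18 without HFD-Sham 2.

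On the normal diet Serpina1a, Serpina1b and Serpina1d were lower in IRI than in sham livers with no overlap, 3 of 5 members where 20% of all tested genes were. This count is not read as a result. The ND-Sham libraries also enter the diet difference on which the members were chosen, and the members may share reads. Serpina1a had the largest difference, -0.47 (SE 0.11), with Serpina1d at -0.32 (SE 0.19) and Serpina1b at -0.22 (SE 0.15). Their size depended on the setting: over 24 alternatives Serpina1a ran from -0.68 to -0.28, Serpina1d from -0.53 to -0.14 and Serpina1b from -0.44 to -0.03. Without ND-Sham 1 the values were -0.51, -0.30 and -0.23 in the same order. Serpina1c (-0.07, SE 0.21) and Serpina1e (0.22, SE 0.28) overlapped between IRI and sham livers. Without Serpina1e, the sum was 9779 ± 289 TPM in ND-IRI livers and 11782 ± 174 TPM in ND-Sham livers, with no overlap (log2 ratio -0.27), against 8429 ± 1206 TPM in HFD-IRI livers and 8838 ± 1344 TPM in HFD-Sham livers, which overlapped (-0.07). The IRI effect on the high-fat diet minus that on the normal diet was 0.34 for Serpina1a (SE 0.16), 0.41 for Serpina1d (SE 0.27), 0.29 for Serpina1c (SE 0.30), 0.02 for Serpina1b (SE 0.21) and -0.06 for Serpina1e (SE 0.40). The values of Serpina1b and Serpina1e changed sign in 7 of 24 alternatives each (-0.16 to 0.20 and -0.38 to 0.18), and that of Serpina1a ran from 0.11 to 0.51.

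Over all tested genes the log2 fold change had a median of 0.16 for IRI against sham on the normal diet, 0.17 for the diets in sham livers and -0.13 for the difference of IRI effects, and median-ratio scaling brought each close to 0. Under that scaling the cluster's sum on the normal diet was lower in IRI livers by a log2 ratio of -0.27. Serpina1e kept its sign in both diet comparisons under each alternative, between -6.24 and -5.61.

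**Figure D3:**
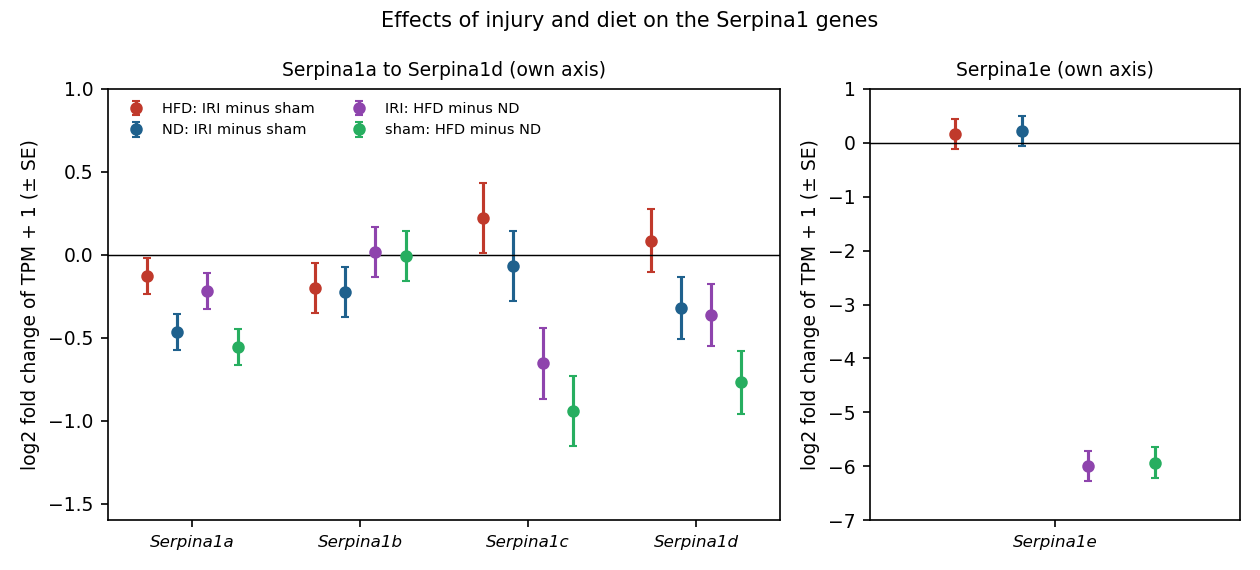
Log2 fold changes of TPM + 1 with their SE for 4 contrasts, Serpina1a to Serpina1d on the left axis and Serpina1e on its own axis on the right. The diet differences of Serpina1e are -5.99 and -5.93, those of the other members lie between -0.94 and 0.02, and the IRI differences of all 5 lie between -0.47 and 0.22.

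The other serpins of clade A, some of them neighbours of the cluster, were mostly called higher under IRI. Of 20 listed, 14 passed the filter, and in limma's test with Benjamini-Hochberg adjustment over all genes (adjusted p under 0.05) 8 rose and 1 fell in HFD livers. Of all tested genes 45.9% were called there, 24% higher and 21.9% lower. On the normal diet 9 rose and 1 fell, where 46.8% of all tested genes were called, 30.2% higher and 16.6% lower. The median log2 fold change of the list was 1.09 on the high-fat diet and 1.32 on the normal diet, beside 0.01 and 0.16 over all tested genes. Serpina3n, an acute phase inhibitor, was at 3136, 5746 and 3939 TPM in HFD-IRI livers, against 678, 709.8 and 586 TPM in HFD-Sham livers. It rose by 2.66 on the log2 scale there (SE 0.21, adjusted p = 4.98e-06) and by 3.06 on the normal diet (SE 0.21, adjusted p = 1.86e-06). Serpina3m and Serpina3f rose by 2.07 and 2.56 on the high-fat diet (adjusted p = 5.85e-05 and 2.3e-05). Serpina10, which encodes the protein Z-dependent protease inhibitor of coagulation, rose by 2.23 on the normal diet (adjusted p = 5.35e-06).

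Serpina6, corticosteroid-binding globulin and a neighbour of the cluster, was the clade A serpin that fell. It averaged 168 ± 33.9 TPM in HFD-IRI livers and 650.4 ± 108 TPM in HFD-Sham livers (log2 fold change -1.95, SE 0.18, adjusted p = 1.11e-05). On the normal diet it was at 97.3 ± 10.8 TPM in ND-IRI livers and 222 ± 37.2 TPM in ND-Sham livers (-1.18, SE 0.18, adjusted p = 0.000277). Serpina7, thyroxine-binding globulin, rose by 2.83 on the normal diet (SE 0.28, adjusted p = 1.6e-05) and was at -0.18 on the high-fat diet (adjusted p = 0.614). The difference between its IRI effects was -3.01 (SE 0.40, adjusted p = 0.0166), the only call for a difference of IRI effects among the 89 context genes tested, where 0.0973% of all tested genes were called. This call was lost without ND-Sham 3, without ND-IRI 2 and without HFD-IRI 3, and the value lay between -3.27 and -2.75 over 24 alternatives.

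Between diets the clade A list held both directions. With the high-fat diet 2 of 14 rose and 2 fell in sham livers, where 5.84% of all tested genes were called (4.63% higher and 1.2% lower), with a list median of 0.06 beside 0.17 over all tested genes. Serpina7 averaged 182 ± 48.1 TPM in HFD-Sham livers, against 26.95 ± 9.89 TPM in ND-Sham livers (log2 fold change 2.74, SE 0.28, adjusted p = 0.000247 by limma), and Serpina6 rose by 1.54 (adjusted p = 0.000673). Serpina3k, an abundant member of the Serpina3 family, averaged 3638 ± 1102 TPM in HFD-Sham livers, against 11663 ± 998 TPM in ND-Sham livers (-1.72, SE 0.22, adjusted p = 0.00143). Serpina11, which borders Serpina1e, fell by 0.71 in sham livers (SE 0.14, adjusted p = 0.0116, call lost without HFD-Sham 2 and with only the groups compared) and by 0.71 in IRI livers (adjusted p = 0.014, call lost without ND-IRI 2 or HFD-IRI 2). In IRI livers 1 of 14 rose and 3 fell, where 3.86% of all tested genes were called (2.38% higher and 1.48% lower), and the list median was -0.23 beside 0.04. Serpina12 (-1.46, adjusted p = 0.0211), Serpina10 (-0.80, adjusted p = 0.0334) and Serpina6 (0.77, adjusted p = 0.0334) each lost the call in 6 to 9 of 24 alternatives.

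**Figure D4:**
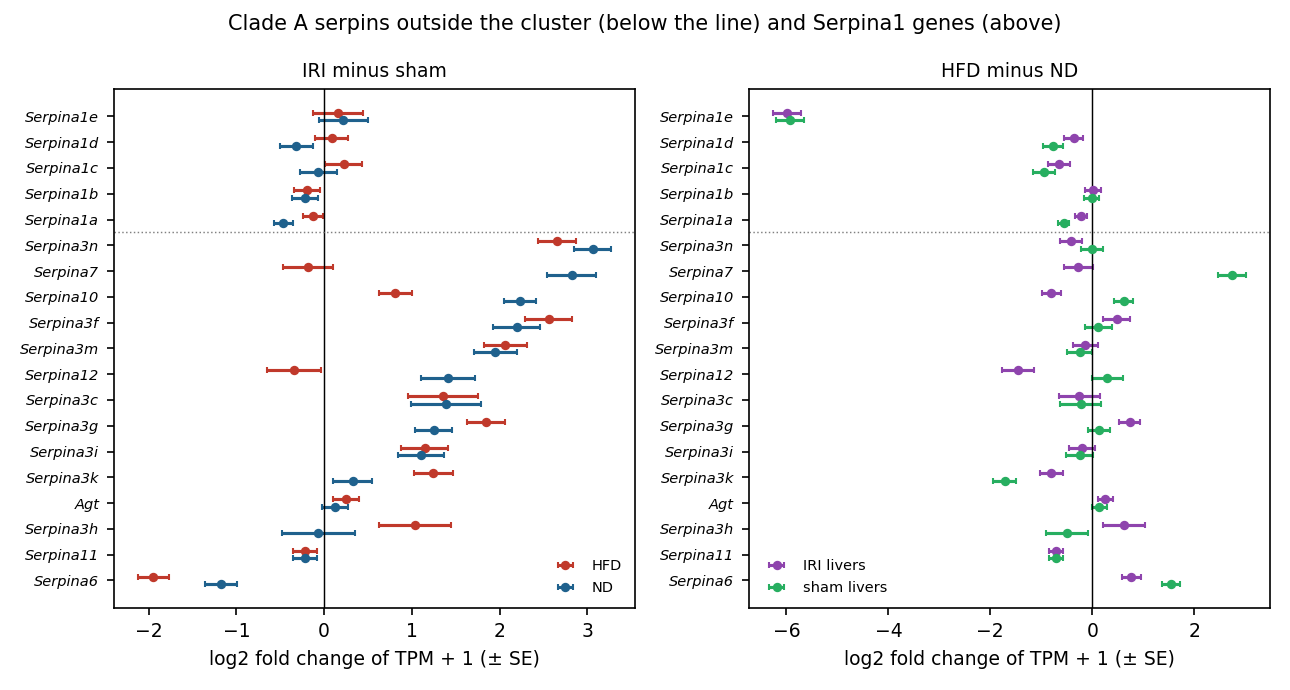
Log2 fold changes of TPM + 1 with their SE for 14 clade A serpins outside the cluster (below the dotted line) and 5 Serpina1 genes (above), IRI minus sham on the left and HFD minus ND on the right. Serpina3n reaches 3.06 and Serpina6 -1.95 under IRI, while the Serpina1 genes stay between -0.47 and 0.22, and Serpina1e is the lowest point on the right.

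Serpins of other clades and other secreted hepatocyte proteins gave a second set of comparisons. Of 11 other hepatic serpins, 2 rose and 2 fell under IRI in HFD livers and 2 rose and 3 fell on the normal diet. Serpind1, heparin cofactor II, fell by 0.80 on the high-fat diet (adjusted p = 9.02e-05) and by 0.72 on the normal diet (adjusted p = 0.000154). Between diets, Serpine2, protease nexin 1, fell in IRI livers (-1.52, adjusted p = 0.000624) and in sham livers (-1.62, adjusted p = 0.000417), at levels of at most 7.56 ± 0.910 TPM. Serpinf2, alpha-2 antiplasmin, fell by 0.58 in IRI livers (adjusted p = 0.0395) and by 0.64 in sham livers (adjusted p = 0.0203), calls that were lost in 12 and 5 of 24 alternatives.

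Of 22 abundant secreted hepatocyte proteins, 3 rose and 2 fell under IRI in HFD livers and 3 rose and 6 fell on the normal diet. The fibrinogen chains Fga, Fgb and Fgg rose by 1.82, 1.88 and 1.90 on the high-fat diet (adjusted p = 0.000126, 3.23e-05 and 1.74e-05), and Rbp4, the plasma retinol carrier, fell by 0.96 on the normal diet (adjusted p = 0.000114). Between diets 1 rose and 3 fell in IRI livers, and 1 fell in sham livers, with list medians of -0.15 and -0.14. Vtn, vitronectin, was the one lower in sham livers (-0.48, adjusted p = 0.0271), a call lost in 11 of 24 alternatives. The summed level of the 22 was 206898 to 229256 TPM in HFD-IRI livers and 212736 to 246239 TPM in ND-IRI livers. In sham livers it was 213334 to 228626 TPM on the high-fat diet and 220077 to 225104 TPM on the normal diet, so the diets overlapped. No contrast with the cluster's sum is read from this, since the cluster was chosen on its measured values.

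Among 11 transcription factors known to act on hepatocyte serpin genes, 5 rose and 2 fell under IRI in HFD livers, and 3 rose on the normal diet with the other 8 not called. Foxa3, Cebpb and Cebpd rose on the high-fat diet by 1.48, 0.89 and 1.78 (adjusted p = 0.000711, 0.00325 and 0.00419). Between diets limma called 0 of 11 in IRI livers, where 2 had an unadjusted p under 0.05 and 8 of 24 alternatives called 1 or 2. It also called 0 of 11 in sham livers, where 0 had an unadjusted p under 0.05 and none of the alternatives made a call. Hnf4a, a nuclear receptor central to hepatocyte genes, was at -0.32 in sham livers (adjusted p = 0.533).

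Interleukin 6 family signals are known to induce acute phase serpins in the liver. Of 8 tested genes, 7 rose under IRI on each diet. The feedback inhibitor Socs3 was at 362 ± 48.1 TPM in HFD-IRI livers and 10.04 ± 2.68 TPM in HFD-Sham livers (log2 fold change 5.06, adjusted p = 1.13e-06), and the receptor Osmr rose by 2.44 there (adjusted p = 1.77e-06). On the normal diet the ligands Lif and Osm rose by 2.64 and 2.45 (adjusted p = 1.74e-06 and 0.000236). Socs3 was lower in HFD-Sham than in ND-Sham livers (-1.51, adjusted p = 0.0147 by limma, call lost without ND-Sham 3, with no filter and with only the groups compared).

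The enzymes that alpha-1 antitrypsin meets, and those that inactivate it, came next. Of the neutrophil serine protease genes Elane, Prtn3 and Ctsg, 0 of 3 passed the filter, and they summed to at most 1.05 TPM in HFD-IRI livers, 2.16 in HFD-Sham, 0.530 in ND-IRI and 2.47 in ND-Sham livers. These are transcript levels, and the amounts of the enzymes themselves were not measured. Of 10 listed neutrophil markers 8 were tested, of which 8 rose under IRI on the high-fat diet and 7 on the normal diet. The 10 together summed to 198 to 531 TPM in HFD-IRI and 7.98 to 17.3 TPM in HFD-Sham livers, and 235 to 637 TPM in ND-IRI and 19.6 to 25.8 TPM in ND-Sham livers. Of 4 metalloproteases able to cut the reactive loop, 3 rose under IRI on the high-fat diet and 4 on the normal diet. Mmp8, neutrophil collagenase, was at 16.8 ± 9.85 TPM in HFD-IRI livers and 0.180 ± 0.122 TPM in HFD-Sham livers (log2 fold change 3.78, adjusted p = 1.47e-05). Mmp12, macrophage elastase, averaged 7.45 ± 4.19 TPM in HFD-Sham livers, against 0.117 ± 0.0723 TPM in ND-Sham livers (2.77, adjusted p = 0.00166).

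Of 16 genes for export and degradation of alpha-1 antitrypsin in the endoplasmic reticulum, 2 rose and 4 fell under IRI in HFD livers, and 8 rose and 2 fell on the normal diet. The chaperone Hspa5 was at 1379.7 ± 124 TPM in HFD-IRI livers and 397 ± 49.4 TPM in HFD-Sham livers (log2 fold change 1.80, adjusted p = 1.18e-05), and it rose by 2.45 on the normal diet (adjusted p = 1.74e-06). Sel1l, an adaptor of the degradation ligase, and Lman1, a cargo receptor for export, fell by 0.87 and 0.62 on the high-fat diet (adjusted p = 0.000215 and 0.00154). Canx, calnexin, and Man1b1, a mannosidase, rose in sham livers with the high-fat diet by 0.47 and 0.52 (adjusted p = 0.0254 and 0.0484), calls lost in 7 and 15 of 24 alternatives. Of 4 genes for uptake of serpin-enzyme complexes, 3 fell under IRI on the high-fat diet and 2 on the normal diet. Lrp1, the endocytic receptor for such complexes, fell by 0.94 on the high-fat diet (adjusted p = 0.00326) and by 0.55 on the normal diet (adjusted p = 0.0465, lost in 14 of 24 alternatives). Vldlr rose on the high-fat diet in IRI livers (1.34, adjusted p = 0.00348) and in sham livers (1.40, adjusted p = 0.00265), at no more than 4.197 ± 0.524 TPM.

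Over all 9 context lists, 43 of 89 tested genes were called under IRI on the high-fat diet, 49 under IRI on the normal diet, 13 between diets in IRI livers and 13 between diets in sham livers. Each IRI count over single lists and over all of them stands against the 45.9% of all tested genes called on the high-fat diet and the 46.8% called on the normal diet. The diet counts, those of marker lists included, stand against 3.86% called in IRI livers (2.38% higher and 1.48% lower). In sham livers 5.84% were called between diets (4.63% higher and 1.2% lower). Nothing particular to these lists is read from any of these counts. Between diets in IRI livers the count over all 9 lists was 2 without ND-IRI 2, 5 without ND-IRI 3 or HFD-IRI 2, 6 without HFD-IRI 1 and 8 without HFD-IRI 3. In sham livers it was 8 without ND-Sham 3 or without HFD-Sham 2. The hepatocyte markers moved with IRI as well: 4 of 10 fell on the high-fat diet and 6 on the normal diet, where their sum was 93107 to 122799 TPM in ND-IRI and 114418 to 133158 TPM in ND-Sham livers. The 5 tested cholangiocyte markers all rose under IRI on both diets, and the list summed to 390 to 1145 TPM in HFD-IRI and 105 to 409 TPM in HFD-Sham livers, and to 221 to 686 TPM in ND-IRI and 40.02 to 90.9 TPM in ND-Sham livers. Most of these sums was Spp1, at 357 to 1103 TPM in HFD-IRI and 96.9 to 396 TPM in HFD-Sham livers. It was at 164 to 622 TPM in ND-IRI and 35.0 to 77.6 TPM in ND-Sham livers. Of 5 red blood cell markers 4 rose on the high-fat diet and 5 on the normal diet, where they summed to 491 to 1554 TPM in ND-IRI and 97.6 to 129 TPM in ND-Sham livers. The part of these markers in the lower Serpina1a, Serpina1b and Serpina1d of ND-IRI livers was not tested. Between diets, Cps1, a urea cycle enzyme, was the hepatocyte marker that fell in sham livers, 1 of 10 (-1.51, adjusted p = 0.00948), and 1 of 10 rose in IRI livers. Of 7 stellate cell markers 4 rose with the high-fat diet in sham livers, where the list summed to 127 to 233 TPM in HFD-Sham and 85.7 to 131 TPM in ND-Sham livers, and their part in the diet difference of the cluster was not tested.

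Across the 12 libraries the members varied together to different degrees, given here as Pearson correlations of log2(TPM + 1) with no test, since the libraries share their diet and operation groups. Serpina1c and Serpina1d had the highest correlation (r = 0.912), followed by Serpina1c and Serpina1e (0.891) and Serpina1a and Serpina1d (0.840). Serpina1b stood apart, with r of 0.0225 to Serpina1e, 0.151 to Serpina1c, 0.281 to Serpina1d and 0.331 to Serpina1a.

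Among 8282 named genes outside the cluster with a mean of at least 5 TPM, the 5 with the pattern most like the summed level were C8b, a subunit of the complement attack complex (r = 0.983), Apom, an apolipoprotein that carries sphingosine-1-phosphate (0.963), Hsd3b5, a steroid dehydrogenase of male mouse liver (0.962), Ces2a, a carboxylesterase (0.959), and Acmsd, an enzyme of tryptophan breakdown (0.949). C8b averaged 64.6 ± 6.47 TPM in HFD-IRI livers, 83.4 ± 20.4 in HFD-Sham, 261 ± 17.6 in ND-IRI and 307 ± 23.3 in ND-Sham livers. The 3 most opposite patterns were those of Mogat1, a monoacylglycerol acyltransferase, and Cd36, a fatty acid receptor (r = -0.961 each), and Cyp2b9, a cytochrome P450 of female mouse liver (-0.957). Cd36 averaged 229 ± 21.0 TPM in HFD-IRI livers, 311 ± 33.6 in HFD-Sham, 23.9 ± 2.82 in ND-IRI and 35.2 ± 4.04 in ND-Sham livers. These r values mostly follow the gap between the 6 HFD and the 6 ND libraries, which each of these genes has.

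Single members had different nearest patterns. Hsd3b5 (r = 0.981) and C8b (0.978) were nearest to Serpina1e, and the major urinary proteins Mup3 (0.927) and Mup7 (0.924) to Serpina1c. Gnmt, glycine N-methyltransferase, was among the nearest to Serpina1d (0.912, with the sulfur amino acid enzyme Cbs at 0.905) and to Serpina1a (0.943, with Urad, a urate pathway enzyme, at 0.962). For Serpina1b the highest values were lower, 0.805 for Akr1c19 and 0.802 for Tm2d2.

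Hsd3b5, Mup3 and Cyp2b9 belong to the genes that differ between male and female mouse liver, so lists of these were added after the values were seen and are given without a test. The 8 listed male-biased genes summed to 8555 to 11584 TPM in HFD-IRI and 22373 to 25993 TPM in ND-IRI livers, and to 7501 to 11461 TPM in HFD-Sham and 20153 to 23113 TPM in ND-Sham livers. Hsd3b5 itself was at 0.137 ± 0.0802 TPM in HFD-IRI and 65.5 ± 25.4 TPM in ND-IRI livers, and at 0.270 ± 0.140 TPM in HFD-Sham and 60.7 ± 35.8 TPM in ND-Sham livers. The 6 female-biased genes in the table summed to 244 to 473 TPM in HFD-IRI and 1.34 to 3.73 TPM in ND-IRI livers, and to 547 to 617 TPM in HFD-Sham and 2.18 to 4.24 TPM in ND-Sham livers. Most of that was Cyp2b9, at 308 ± 108 TPM in HFD-IRI and 0.370 ± 0.142 TPM in ND-IRI livers. The Y-linked Ddx3y was at 35.9 to 67.6 TPM in all 12 libraries and Xist, the X-inactivation RNA, at no more than 0.0700 TPM, in both diets alike. The part of these genes in the level of Serpina1e was not tested.

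**Figure D5:**
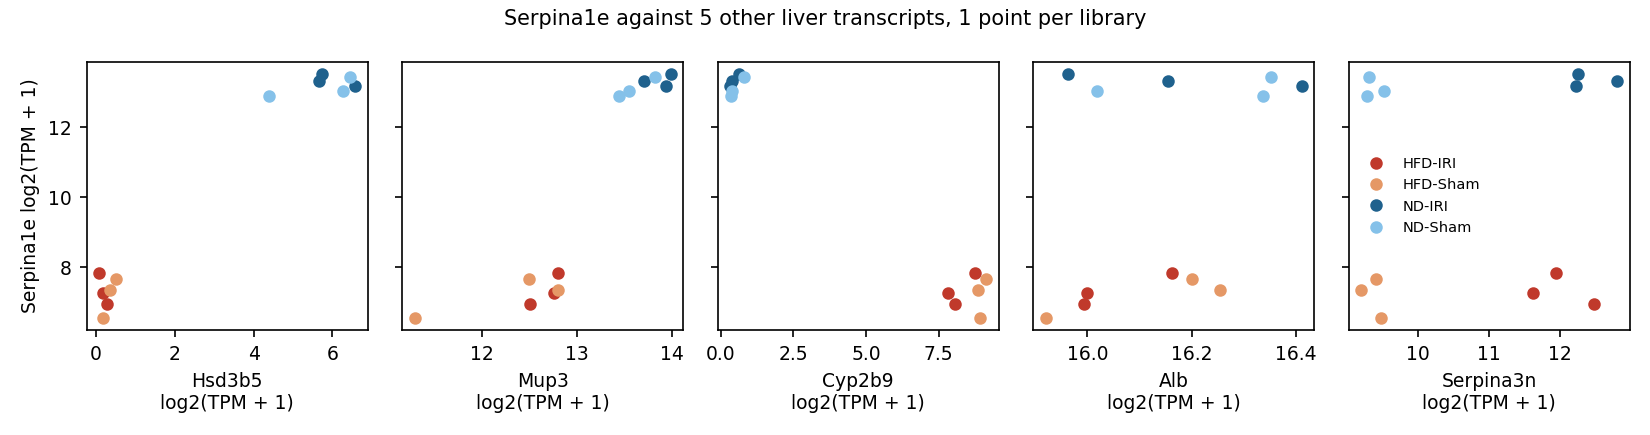
Serpina1e against 5 other liver transcripts, both as log2(TPM + 1), 1 point per library and a panel per transcript. The 6 HFD and 6 ND libraries lie apart along Hsd3b5, Mup3 and Cyp2b9, but they overlap along albumin (Alb) and along Serpina3n, where the IRI and sham libraries lie apart instead.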

How the data were processed

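Poly(A) RNA was sequenced as strand-specific libraries, per the labels' protocols. The deposited values were TPM per gene symbol, made by the authors on mouse build GRCm39 per the submitters' processing notes. The aligner, the counting tool, the annotation and the use of strand are not given in the sources used here. A second sheet with 23 sample columns was not used. Of 25947 entries, 13364 had at least 1 TPM in at least 3 of 12 libraries. They were fitted as log2(TPM + 1) with 1 mean per group by limma 3.58.1 under R 4.3.3, its prior variance following a trend in the mean level, two-sided, with Benjamini-Hochberg adjustment per contrast, and called at an adjusted p under 0.05. With 3 against 3 libraries an exact permutation test cannot give a p below 0.1. The labels name separate samples without saying more, so p-values measure only how these samples vary, and that variation may be technical.

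The members, the 9 context lists and the tests were chosen with earlier results of these data known. All 6 members were named. Per list and contrast, the called genes with the largest changes and genes with high levels were named, and for likeness the 5 highest and 3 lowest r to the sum and the 2 highest to each member. Some genes that the rule names are not reported here. The promoter site and the lists of sex-biased genes were chosen after the values or sequences were seen. Alternatives were a pseudocount of 0.1, no filter or a filter at 5 TPM, 5 scalings, no variance trend, a replicate block, fits of the compared groups alone, leaving out each library, leaving out replicate 1 of ND-Sham and of ND-IRI together, and group medians for the sum. On simulated data of 13364 genes, of 100 genes with a log2 change of 1, 73, 77, 64, 73 and 46 were recovered for IRI on ND, IRI on HFD, diet in sham livers, diet in IRI livers and the difference of IRI effects, and of 100 with a change of 2, 96, 97, 95, 98 and 88. False calls were 13, 7, 6, 10 and 3 in the same order. Only these genes were changed, all above 5 TPM in ND-Sham livers, with independent normal noise. Far more genes were called in the measured IRI comparisons, so these rates do not carry over to them or to genes at low levels. Sequences came from RefSeq and GENCODE M21 and were compared with Biopython 1.88 in Python 3.11.15, and figures were drawn with matplotlib 3.10.9.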

Additional observations from a re-analysis of the deposited data

Results flagged for a closer look

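Serpina7, thyroxine-binding globulin, was called as differing between the diets in its response to IRI. The call was lost without ND-Sham 3, without ND-IRI 2 and without HFD-IRI 3. The IRI effect on the high-fat diet minus that on the normal diet was -3.01 on the log2 scale (limma, adjusted p = 0.0166). Its level was 158 ± 25.9 TPM in HFD-IRI and 182 ± 48.1 TPM in HFD-Sham livers, against 194 ± 54.2 TPM in ND-IRI and 26.95 ± 9.89 TPM in ND-Sham livers (SD, n = 3 libraries each), so the ND-Sham livers stood apart from the other 3 groups.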

How the results depend on the processing

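The log2 ratio of the summed level kept its sign between diets under all alternatives. Median-ratio scaling gave -0.27 for IRI on the normal diet, -1.43 for the diets in sham livers and 0.18 for the difference of IRI effects, and quantile normalization gave -1.03 for the diets in IRI livers. The count of context genes called between diets in sham livers was 21 when scaled to secreted hepatocyte proteins, 7 with only the groups compared, and 8 without ND-Sham 3 or HFD-Sham 2. In IRI livers it was 5 with no filter or only the groups compared, and 2 to 8 when leaving out ND-IRI 2, ND-IRI 3, HFD-IRI 1, HFD-IRI 2 or HFD-IRI 3. For the difference of IRI effects it was 2 with a pseudocount of 0.1 or scaled to secreted proteins, 10 when replicate 1 of ND-Sham and of ND-IRI was left out together, and 0 to 5 when leaving out 1 library (0 without ND-Sham 3, ND-IRI 2 or HFD-IRI 3, 5 without ND-IRI 1, 2 without HFD-Sham 3). The cause was not tested.

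Deviations of same-numbered libraries from their group means had r = -0.188 to 0.418 over 18 pairs, 3 of them over 0.1. Differently numbered libraries were not compared, so this cannot decide whether the numbers pair the samples. With the replicate block, 8 context genes were called between diets in IRI livers, and the summed level was at -1.24 there and at -1.22 in sham livers. Of the values of single members, 583 stayed within 1 SD of the libraries and 17 moved by more. Of those of named context genes, 1889 kept their side of the threshold and 240 lost the call. Depth is unknown, so precision near 0 TPM, as for Serpina1f, could not be stated.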
